A study of Mus musculus with 4 samples.

Results

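The cells described here are 143 CD4+ T cells that carry closely related T cell receptors, 65 from the brain and 78 from the spleen of mice with experimental autoimmune encephalomyelitis (EAE). They were chosen by their receptor alone: a cell belonged to the family when its receptor library held exactly 1 productive beta chain, built from TRBV26 and TRBJ1-5, and a productive alpha chain built from TRAV7-5 and TRAJ32. Of 9887 cells with a paired receptor and a passing RNA profile (3138 in brain, 6749 in spleen), these 143 matched. All of them held a single productive alpha chain and all passed the RNA filters. The receptor genes and the size of the family were what led to its choice, so they are given as a description.

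The series compared 2 tissues of wild-type C57BL/6 mice on day 60 after EAE was induced, a model in which T cells that recognise myelin attack the central nervous system. CD4+ T cells that carried CD44, a marker of antigen experience, and lacked GITR, a surface receptor found at high levels on regulatory T cells, were sorted from brain and from spleen, and 18718 and 38000 cells were loaded for 5' single-cell RNA and receptor sequencing. There is 1 library of each kind per tissue, and the labels give neither the number of animals pooled nor their sex. Every interval below is therefore a 95% interval of counting error within these libraries, there is no replicate check of any difference between tissues, and no p-value is given.

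A T cell receptor is assembled from V, D and J gene segments in each developing T cell, and bases are removed and added where segments meet. The resulting stretch, the third complementarity-determining region (CDR3), contacts the peptide that is presented on an MHC molecule. Cells with identical CDR3 bases in both chains are taken to descend from the same T cell, while like receptors with different bases arose in separate T cells. T helper 1 (Th1) cells are driven by the transcription factor T-bet, encoded by Tbx21, and secrete interferon gamma, encoded by Ifng, which activates macrophages and microglia. In EAE both Th1 and interleukin-17 producing Th17 cells are found in the inflamed tissue.

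The family held 3 clonotypes, and their CDR3 bases are shown because they show which positions the family shares. The beta chain CDR3s follow, 5′ to 3′, with capitals at the positions where the 3 clonotypes are not all identical.
TRB of clonotype 1: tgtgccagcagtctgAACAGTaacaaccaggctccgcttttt
TRB of clonotype 2: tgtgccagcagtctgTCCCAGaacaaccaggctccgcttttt
TRB of clonotype 3: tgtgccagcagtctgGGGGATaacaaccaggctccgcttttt

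The alpha chain CDR3s are marked in the same way. Clonotypes 1 and 2 had the same alpha bases.
TRA of clonotypes 1 and 2: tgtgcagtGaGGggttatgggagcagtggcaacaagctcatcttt
TRA of clonotype 3: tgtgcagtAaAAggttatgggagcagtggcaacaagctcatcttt

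All 3 beta CDR3s were 42 bases long, or 14 codons, and each pair differed at 5 bases, all within codons 6 and 7 counted from the first codon of the CDR3. Both of these codons encoded different residues in every pair. The alpha CDR3s were 45 bases long. That of clonotype 3 differed from the other at 3 bases in codons 3 and 4, which changed 1 residue. The 3 beta chains thus shared their length and flanks and differed in codons 6 and 7, at the V to J junction. The shared flanks follow largely from the V and J genes of the rule. The length was also found outside the family. There, 15 cells had TRBV26 with TRBJ1-5 as their only productive beta chain, and 10 of these had a CDR3 of the same length. Of all cells outside the family, 7 held the very beta bases of a family clonotype, and so its length. How many of these 7 are among the 10 was not counted.

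Most cells with 1 chain of the rule also had the other. TRBV26 with TRBJ1-5 was the beta chain of 73 brain cells, of which 65 (89.0%) carried the alpha chain of the rule, and of 83 spleen cells, of which 78 (94.0%) did. Conversely, 65 of 68 brain cells (95.6%) and 78 of 87 spleen cells (89.7%) with the TRAV7-5 TRAJ32 alpha chain had the beta chain of the rule. These counts include cells without a passing RNA profile. They count cells, and cells of a clonotype share both chains by definition. A single clonotype held 117 of the 143 cells with both chains. The shares describe the choice itself and were not tested.

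Among cells outside the family, 6 carried exactly 1 beta chain together with the alpha bases of clonotypes 1 and 2. The beta chain of 5 of them, 1 in brain and 4 in spleen, came from TRBV29 and TRBJ1-5 and had the length of the family's. It is shown with capitals where it differs from the beta chain of clonotype 1.
TRB of the TRBV29 cells: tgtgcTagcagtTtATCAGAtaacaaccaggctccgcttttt

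This beta CDR3 differed from that of clonotype 1 at 8 of 42 bases, which changed 2 residues. So the same alpha bases were found with a further beta sequence, from another V gene, in both tissues.

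Clonotype 1 made up most of the family. It held 57 brain cells, 1.82% of paired cells there (exact Clopper-Pearson interval 1.38 to 2.35), and 60 spleen cells, 0.889% (0.679 to 1.14). By size it ranked 2 of 2135 clonotypes in brain and 1 of 6256 in spleen. Clonotype 2 held 8 brain cells (0.255%) and 15 spleen cells (0.222%), which made it the second largest in spleen and number 23 in brain. Clonotype 3 held 3 spleen cells and no brain cell, and 0 of 3138 brain cells, taken as up to 3 cells, allows a share of up to 0.0956%. The 2 largest spleen clonotypes were therefore both members of the family, and both were also present in brain. For comparison, 21 of 62 other brain clonotypes with at least 5 cells (33.9%) were found in spleen, and 12 of 21 such spleen clonotypes (57.1%) in brain.

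RNA was read as unique molecular identifiers (UMIs), summed over the cells of a group and given as CPM (UMIs of the gene per 1000000 UMIs of the group). Family cells held 653497 UMIs in brain (median 9531 per cell) and 530265 in spleen (median 6405.5). The comparison group in each tissue was every other cell whose clonotype had at least 5 cells there: 661 brain cells of 62 clonotypes with 6958579 UMIs (median 10068), and 140 spleen cells of 21 clonotypes with 1028750 UMIs (median 6788). A gene is called higher or lower below when its ratio was at least 1.5-fold, the exact interval of the ratio excluded 1, and it reached at least 10 CPM in the higher group. A group at 0 is set at 3 UMIs and the fold then written as at least that size. The brain and spleen libraries shared 31 barcodes, none of them in the family. Cd4 was found in 58 of 65 brain and 71 of 78 spleen family cells, and Cd8a had 0 UMIs in both. Cd8b1 had 12 UMIs in 9 brain and 5 UMIs in 4 spleen family cells, and the 7 markers of CD8 and NK cells summed to 41.3 and 60.3 CPM, with 4 and 2 of them at 0. The GITR gene, Tnfrsf18, had a level of 161 CPM in the brain cells and 158 CPM in the spleen cells of the family, though the sort took cells without the protein.

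The family showed both Th1 markers in both tissues. Ifng stood at 955 CPM in brain family cells and 591 CPM in other expanded brain cells, against 262 CPM in spleen family cells and 113 CPM in other expanded spleen cells. At least 1 Ifng UMI was found in 60 of 65 brain family cells (92.3%), 61.4% of the other brain cells, 42 of 78 spleen family cells (53.8%) and 22.1% of the other spleen cells. The order was the same after each cell was thinned to 3000 UMIs, at 72.3%, 45.8%, 37.7% and 16.5%, with 6 shallower cells left out over the 4 groups. Both tissues thus ranked the family above its neighbours, and both brain groups ranked above both spleen groups.

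Tbx21 followed another order. It stood at 211 CPM in spleen family cells, 122 CPM in brain family cells, 92.8 CPM in other brain cells and 73.9 CPM in other spleen cells. The shares of cells with a UMI were 67.9%, 63.1%, 47.5% and 28.6%, and 37.7%, 33.8%, 22.7% and 19.4% after thinning. Tbx21 was thus highest where Ifng of the family was lower. Both markers were found together in 40 of 65 brain and 27 of 78 spleen family cells. In 147 spleen barcodes without T cell features (median 5382 UMIs), where neither gene belongs, Ifng was found in 3 (2.04%) and Tbx21 in 4 (2.72%), and both spleen groups lay above these shares. The brain library held 6 such barcodes, too few to give a background there.

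Interleukin-17A was absent from the counts of the family. Il17a had 0 UMIs in all 65 brain and all 78 spleen family cells, which by the same limit of 3 cells allows up to 4.62% and 3.85% of cells with a UMI. In the other expanded brain cells it stood at 438 CPM, in 98 of 661 cells, so that the level in brain family cells was at least 95.4-fold lower.

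**Figure D1:**
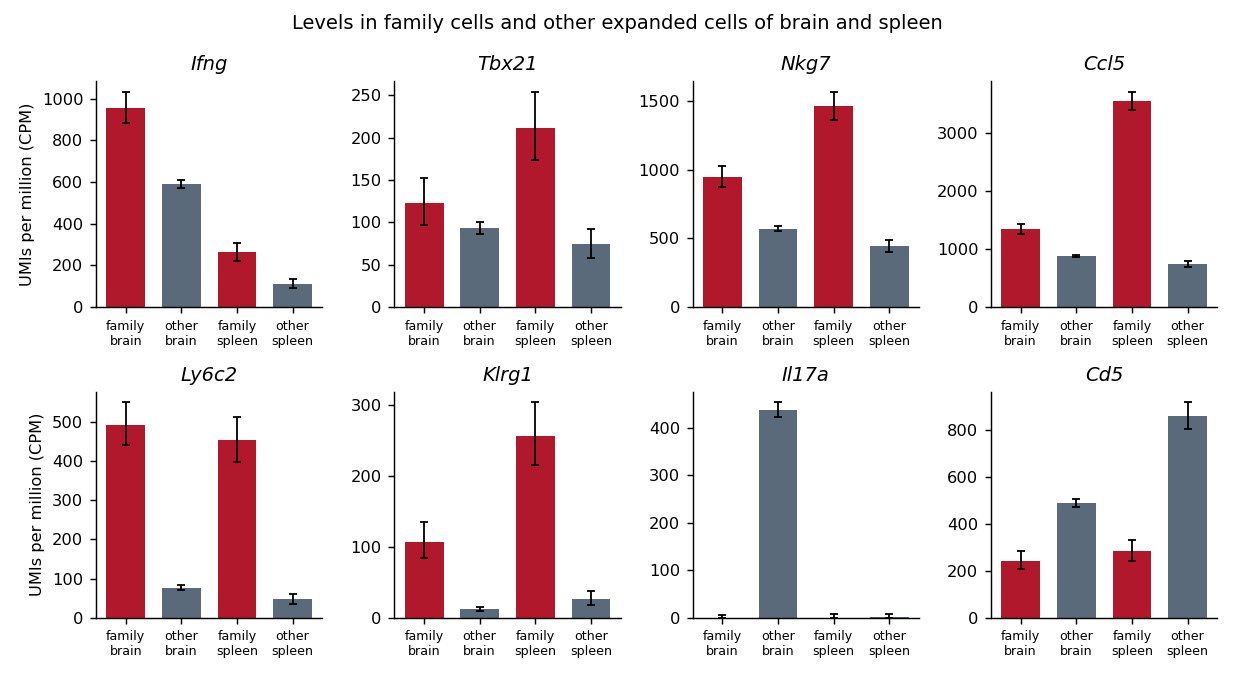
Level in CPM (linear axes from 0) of 8 genes in family cells (red) and other expanded cells (grey) of brain and spleen. Bars are the summed UMIs of a group over its total and lines are 95% Poisson intervals, which cover counting error only. Family cells had 955 (brain) and 262 CPM (spleen) of Ifng, 122 and 211 CPM of Tbx21, and 0 of Il17a, which was at 438 CPM in other expanded brain cells.

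The first comparison asked how cells of the same receptor family differed between brain and spleen. Higher in brain family cells were 7 of 11 measured early response genes, 8 of 19 residency genes, Ifng and Tnf. Higher in spleen family cells were 5 of 7 NK receptor genes, 6 of 13 recirculation genes and 5 of 11 cytotoxic genes, of which another 2 were higher in brain. Of 8584 genes measured, 512 (5.96%) were higher and 697 (8.12%) lower in brain. The median log2 ratio of all genes was −0.12, and with TMM scaling, which moves it to −0.01, the split became 648 higher and 460 lower. Since 117 of the 143 cells are clonotype 1, the comparison was repeated without it, which left 26 cells and gave 256 higher and 238 lower genes, of which 133 and 93 were among the first.

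Of 11 measured genes of early response to receptor signalling, 7 were higher in brain, none was lower, and the median log2 ratio was 1.59. Egr1, a transcription factor induced within minutes of receptor signalling, was at 1166 CPM in the brain cells against 18.9 CPM in the spleen cells, which is 61.8-fold higher (33.4 to 129), and was found in 37 of 65 against 6 of 78 cells. Nr4a1, an orphan nuclear receptor used as a reporter of receptor signalling, had 171 CPM in brain and 5.66 CPM (3 UMIs) in spleen, or 30.3-fold (10.1 to 149). Nr4a2, from the same family, had 42.9 CPM in brain and none in spleen, at least 7.57-fold. At most 6 of the 78 spleen cells held a UMI of each of these 3 genes.

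The same held for genes that tissue digestion and handling also induce. In the list of heat shock and dissociation genes, 10 of 15 were higher in brain and none lower, with a median log2 ratio of 1.54 and a summed level of 12666 CPM in brain against 3545 CPM in spleen. Of its 18 members, 1 was at 0 in brain and 3 in spleen. Fos had 782 CPM against 26.4 CPM (29.6-fold, 17.5 to 54.6), Jun 1845 against 111 CPM (16.6-fold, 12.8 to 21.9) and the phosphatase gene Dusp1 676 against 22.6 CPM (29.9-fold, 16.9 to 58.3). Brain and spleen were processed as separate tissues, and the part that handling has in the early response result was not tested. The other expanded cells differed in the same list, with 15905 CPM in brain and 3733 CPM in spleen.

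Among the genes named by their rank, Tnfaip3, which encodes the NF-κB inhibitor A20, had 1151 CPM in brain and 111 CPM in spleen (10.3-fold, 7.93 to 13.7). Zfp36, whose protein speeds the decay of cytokine mRNAs, had 881 against 60.3 CPM (14.6-fold, 10.2 to 21.6), and Ppp1r15a, a stress-induced phosphatase subunit, 537 against 35.8 CPM (15.0-fold, 9.46 to 25.2).

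Among 11 measured Th1 cytokine and chemokine genes, 3 were higher and 3 lower in brain (median log2 ratio 0.41). Ifng was 3.64-fold higher (3.03 to 4.41) and Tnf, at 303 against 54.7 CPM, 5.54-fold higher (3.74 to 8.49). Ccl4 was at 96.4 CPM in brain against 0 in spleen, but its 63 UMIs came from 3 cells. Ccl5, a chemokine of memory and effector cells, went the other way, with 1347 CPM in brain and 3555 CPM in spleen (2.64-fold lower, 2.44 to 2.86). Of 6 measured Th1 transcription factors, Bhlhe40, which supports cytokine production, was 2.23-fold higher (1.90 to 2.63), while Tbx21 was 1.73-fold lower (1.28 to 2.33) and Zeb2, a factor of terminal effector cells, 2.23-fold lower (1.70 to 2.95). Ifng and Tnf thus had the opposite direction to Tbx21, and Ccl5 the same direction.

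Brain levels were higher for 8 of the 19 residency genes that could be measured and lower for none (median log2 ratio 0.51). Cd69, which keeps T cells in tissue by removing the exit receptor S1PR1 from the surface, had 702 CPM in brain and 128 CPM in spleen (5.48-fold, 4.24 to 7.17). Rgs1, a regulator of chemokine receptor signalling, had 875 against 121 CPM (7.25-fold, 5.59 to 9.54), and Itga1, a collagen-binding integrin, 90.3 against 20.7 CPM (4.35-fold, 2.26 to 9.19). Cd69 lies outside the rule for named genes and was chosen after its values were seen. Cd69 and Nr4a genes stand in both the residency and the early response list.

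Recirculation genes mirrored this, with 6 of 13 lower in brain and none higher (median log2 ratio −0.55). S1pr1 itself had 78.0 CPM in brain and 196 CPM in spleen (2.51-fold lower, 1.78 to 3.59), and without clonotype 1 its ratio no longer met the rule, at 0.840. S1pr4, another sphingosine phosphate receptor, was 2.57-fold lower (1.80 to 3.72). Il7r, the survival receptor of memory T cells, had 493 against 847 CPM (1.72-fold lower, 1.49 to 1.99).

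Among 11 measured cytotoxic genes 5 were lower and 2 higher in brain, and among 7 NK receptor genes 5 were lower and none higher (median log2 ratios −0.79 and −1.32). Klrg1, an inhibitory receptor of short-lived effector cells, had 107 CPM in brain and 256 CPM in spleen (2.39-fold lower, 1.78 to 3.24). Cx3cr1, the fractalkine receptor, had 32.1 against 109 CPM (3.40-fold lower, 2.04 to 5.90), and S1pr5 29.1 against 88.6 CPM (3.05-fold lower, 1.76 to 5.50). Klrk1, the gene of NKG2D, was 4.17-fold lower (2.67 to 6.73). These transcripts sat in few cells: all 6 brain cells with Cx3cr1 also had Klrg1, as did 16 of 18 spleen cells with Cx3cr1. Within the spleen family, 32 of 78 cells had a Klrg1 UMI, so the family was not uniform in this respect.

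Further genes named by the rule lay outside the groups above. Bcl2, a survival factor, had 488 CPM in brain and 198 CPM in spleen (2.47-fold, 1.97 to 3.10), and Ifngr1, a chain of the interferon gamma receptor, 1116 against 658 CPM (1.70-fold, 1.49 to 1.93). Of 12 myeloid and microglia markers 6 were at 0 in brain and 10 in spleen family cells, among them Csf1r, Lyz2 and Tmem119 in both. Dtx1, a Notch pathway ubiquitin ligase, had 27.5 CPM in brain and 215 CPM in spleen (7.81-fold lower, 4.72 to 13.6). Slamf6, a receptor of less differentiated memory cells, was 5.6-fold lower (2.88 to 11.9), Ripor2, an inhibitor of RhoA, 2.61-fold lower (2.15 to 3.17) and Ddit4, an mTORC1 inhibitor, 3.02-fold lower (2.17 to 4.27). The cell cycle list had 6 genes higher in brain and none lower, of 10 measured, but its levels rested on few cells. Mki67, a proliferation marker, had 78.0 against 39.6 CPM (1.97-fold, 1.16 to 3.45), with a ratio of 0.785 without its richest brain cell and 0.264 without clonotype 1. The receptor complex itself did not separate the tissues by the rule: 0 of 14 genes of the T cell receptor complex and its proximal kinases were higher or lower, among them Cd3e at 854 and 894 CPM.

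**Figure D2:**
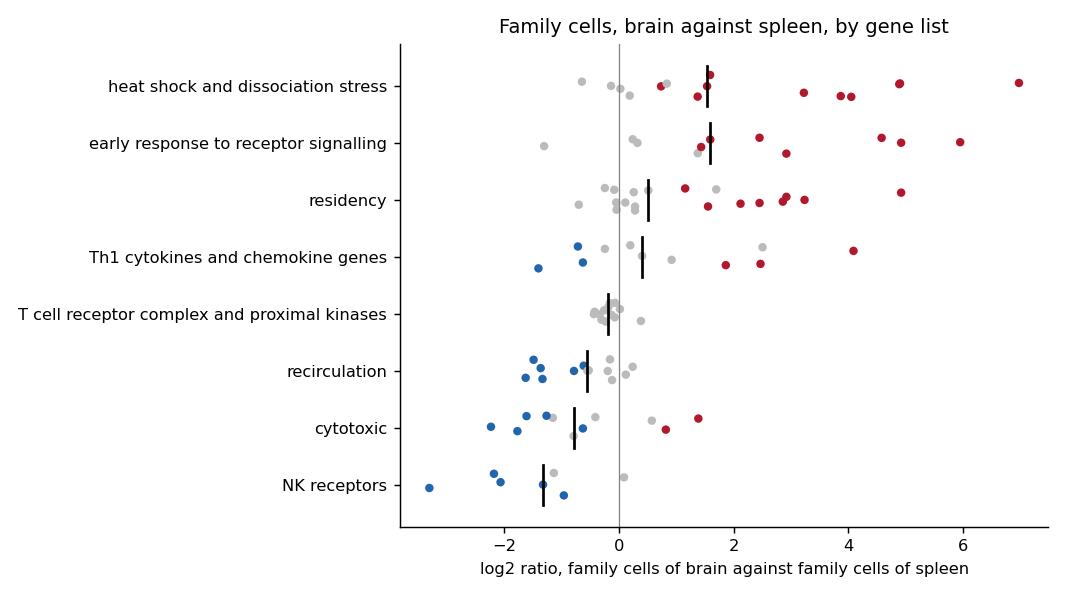
Log2 ratio of brain against spleen family cells for each measured gene of 8 lists (red higher in brain, blue lower, grey neither; black lines are list medians). The median was 1.59 for early response genes, 0.51 for residency, −0.55 for recirculation and −1.32 for NK receptors, and all 14 receptor complex genes were neither higher nor lower.

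Of 43 genes described here and called between the tissues, clonotype 1 had the same call for all 23 higher and all 20 lower genes. Clonotype 1 held 57 of 65 brain and 60 of 78 spleen family cells, so its agreement was largely fixed by how the genes were called. In clonotype 2, with 8 brain and 15 spleen cells, the call was the same for 17 of the 23 and 10 of the 20, and the others did not meet the rule. The 43 genes were picked for description. Over all genes, the comparison without clonotype 1 shared 133 of 512 higher and 93 of 697 lower calls. Klrk1 and Klrd1 had 0 UMIs in clonotype 2 in both tissues, S1pr5 had 0 in brain and 4 in spleen, Itga1 had 1 and 0, and S1pr1 had a ratio of 0.872. Ifng was 3.76-fold higher in brain in clonotype 1 (984 against 262 CPM) and 2.81-fold higher in clonotype 2 (732 against 260 CPM), with intervals of 3.06 to 4.67 and 1.75 to 4.63. Egr1 was 54.8-fold and 89.5-fold higher, the latter against a single spleen UMI (15.5 to 3590). Cd69 was 6.3-fold and 4-fold higher, and Rgs1 17.0-fold and 2.16-fold higher. Dtx1 had brain to spleen ratios of 0.144 and 0.132. For Ccl5 the ratio was 0.328 in clonotype 1 (0.301 to 0.358) and 1.26 in clonotype 2 (0.943 to 1.69), where it did not meet the rule. Tbx21 ratios were 0.555 and 0.638, the latter also outside the rule (0.238 to 1.56).

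Set beside the other expanded cells, the brain to spleen ratio of the family differed for some of these genes. Other expanded cells had 8.73% of 8882 genes higher and 17.6% lower in brain. Their Egr1 ratio was 7.27, so that of the family was 8.50 times as large (4.42 to 16.4, counting error on the log scale). The spleen level of the family rested on 10 Egr1 UMIs in 6 cells, and 5 cells held 48.4% of its brain UMIs. The Egr1 interval does not cover this spread over cells. After thinning, Egr1 was found in 41.5% of brain and 3.90% of spleen family cells, against 45.8% and 12.2% of the others. For Ifng the family's ratio was 0.695 times that of the others (0.536 to 0.902), for Tbx21 0.461 times (0.318 to 0.669), for Ccl5 0.321 times (0.288 to 0.359) and for Zeb2 0.274 times (0.185 to 0.406). Of the Ifng UMIs of other expanded cells, a single cell held 969 of 4112 in brain, and a single cell 65 of 116 in spleen. The Ifng interval does not cover such an uneven spread over cells. In other expanded cells Tbx21 had a brain to spleen ratio of 1.26 and Zeb2 one of 1.64, against 0.580 and 0.448 in the family. For Cd69 (0.926, 0.683 to 1.26), Klrg1 (0.887, 0.527 to 1.49), S1pr5 (1.15, 0.505 to 2.61) and Tnf (1.28, 0.805 to 2.03) the interval of this ratio of ratios held 1. These values compare libraries, with no replicate.

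The second comparison set the family against other expanded cells within the brain. Family cells carried more of a small group of effector and trafficking genes, among them Klrg1, Ly6c2 and S1pr5 of clonotype 1, and less of the Th17 program and of several inhibitory receptors. Of 8572 genes measured, 439 (5.12%) were higher and 598 (6.98%) lower in the family, and the median log2 ratio of all genes was −0.02. Without clonotype 1, 8 cells remained, with 446 higher and 199 lower genes, of which 87 and 93 were among the first. Of the 51 genes named for this comparison that could be called there, 28 kept their call, 17 no longer met the rule and 6 had a ratio on the other side of 1, so this comparison describes clonotype 1 first of all.

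Klrg1 had 107 CPM in brain family cells and 12.4 CPM in other brain cells (8.67-fold, 6.23 to 12), with a UMI in 17 of 65 and 46 of 661 cells. The 5 richest family cells held 60.0% of its UMIs. Ly6c2, a surface protein of circulating effector and memory T cells, had 493 against 76.6 CPM (6.43-fold, 5.58 to 7.40), in 28 of 65 and 81 of 661 cells. S1pr5 had 29.1 against 4.17 CPM (6.98-fold, 3.70 to 12.9) in 7 and 17 cells. Each of these 3 genes was therefore detected in a minority of the family. In the 8 brain cells of clonotype 2 Klrg1 and Ly6c2 stood at 13.1 CPM (1 UMI) and 78.4 CPM (6 UMIs). Clonotype 1 had 120 and 548 CPM, so the folds of Klrg1 and Ly6c2 come from clonotype 1. S1pr5 had 0 UMIs in clonotype 2 and 32.9 CPM in clonotype 1. In those 8 cells 3 UMIs equal 39.2 CPM, so the S1pr5 zero cannot separate the clonotypes.

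Other genes were spread over more cells. Hdgfl3, a member of the hepatoma-derived growth factor family, had 148 against 31.0 CPM (4.78-fold, 3.72 to 6.10), with a UMI in 44 of 65 and 129 of 661 cells. Lpin1, a phosphatidate phosphatase, had 109 against 24.1 CPM (4.50-fold, 3.36 to 5.97), and Txnip, an inhibitor of glucose uptake, 701 against 286 CPM (2.45-fold, 2.21 to 2.71), in 62 of 65 and 529 of 661 cells. Cd7 was 4.28-fold (3.21 to 5.66), Susd2 5.25-fold (3.37 to 8.02), Mctp2 2.95-fold (2.27 to 3.79), Xdh, the gene of xanthine dehydrogenase, 3.42-fold (2.28 to 5.02) and Dgkh, a diacylglycerol kinase, 2.70-fold higher (2.01 to 3.57). Ube2c, a mitotic ubiquitin-conjugating enzyme, had a 12.9-fold higher level that came from a single family cell with all 34 UMIs.

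The Th1 lists held genes of both directions. Of 12 measured Th1 cytokine and chemokine genes 4 were higher and 3 lower (median log2 ratio 0.32). Ifng was 1.62-fold higher (1.48 to 1.76), Nkg7, a gene of cytotoxic granules, 1.66-fold higher at 947 against 571 CPM (1.52 to 1.80), and Ccl5 1.53-fold higher (1.43 to 1.65). Without the single family cell richest in Ifng that ratio was 1.49, and for Ccl5 it was 1.34 without its richest cell, both below the rule. Of the 4112 Ifng UMIs of the other brain cells, a single cell held 969. Without clonotype 1 the Nkg7 ratio was 0.435. Xcl1, a chemokine for cross-presenting dendritic cells, was 11.3-fold lower (5.17 to 30.9), Csf2, the gene of GM-CSF, 3.45-fold lower (1.65 to 8.66) and Lta, the gene of lymphotoxin alpha, 2.94-fold lower (1.82 to 5.09).

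Of the receptors that drive Th1 cells, Il12rb2, the inducible chain of the interleukin-12 receptor, had 289 against 151 CPM (1.92-fold, 1.64 to 2.24) and Il18rap, a chain of the interleukin-18 receptor, 329 against 167 CPM (1.96-fold, 1.69 to 2.28). Ifngr2, the signalling chain of the interferon gamma receptor, had 0 UMIs in both family groups, against 12.2 CPM in other brain cells (at least 2.66-fold lower). Of 6 measured Th1 transcription factors Zeb2 was higher (1.62-fold, 1.27 to 2.03), but without its richest cell the ratio was 1.41, below the rule. Tbx21, at 122 against 92.8 CPM, had a ratio of 1.32 (1.03 to 1.67) and was not called.

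In the Th17 list 10 of 12 measured genes were lower in the family and none was higher (median log2 ratio −2.20). Besides Il17a, Il1r1, the interleukin-1 receptor that promotes Th17 cells, was at 0 in the family against 129 CPM in 201 of 661 other cells (at least 28.1-fold lower). Ccr6, a Th17 homing receptor, was at 0 against 37.6 CPM (at least 8.2-fold) and Ahr, the aryl hydrocarbon receptor, at 0 against 24.1 CPM (at least 5.26-fold). Ifng and Il17a were found together in 22 of the other brain cells and in no family cell.

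Among 9 measured inhibitory receptors 5 were lower in the family and 1 higher (median log2 ratio −1.56). The higher gene was Entpd1, which encodes the ectonucleotidase CD39, at 76.5 against 42.0 CPM (1.82-fold, 1.32 to 2.47), chosen after its values were seen. Ctla4 had 124 against 745 CPM (6.01-fold lower, 4.83 to 7.58), Pdcd1, the gene of PD-1, 12.2 against 99.5 CPM (8.12-fold, 4.10 to 18.9) and Lag3 0 against 43.5 CPM (at least 9.49-fold). Tox, a factor of chronically stimulated T cells, was 2.94-fold lower (2.08 to 4.30). Of the strongest differences by rank, Ramp1, a co-receptor for the neuropeptide CGRP, had 7.65 against 241 CPM (31.5-fold lower, 13.5 to 97.1), in 3 of 65 against 313 of 661 cells, Nrgn, a calmodulin-binding protein gene best known from neurons, 0 against 193 CPM (at least 42.1-fold) and Penk, the enkephalin precursor gene, 0 against 57.9 CPM (at least 12.6-fold). Spp1, the osteopontin gene, was also at 0, but its 433 UMIs in the others came from 7 cells. Rgs16 was 29.2-fold lower (9.95 to 142; 3 family UMIs), Atf3, a stress-induced factor, 15.8-fold lower (6.73 to 48.7), and the chemokine receptor genes Ccr8 and Ccr4 11.0-fold (5.02 to 30.0) and 23.4-fold lower (4.16 to 927; 1 family UMI).

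Within brain, the family also had less of the residency list than the other expanded cells and more of the recirculation list. Of 20 measured residency genes 10 were lower and 1 higher (median log2 ratio −0.51), and of 13 recirculation genes 5 were higher and 1 lower (0.49). Rbpj, the Notch effector, had 47.4 against 200 CPM (4.22-fold lower, 2.96 to 6.24) and Nr4a2 42.9 against 219 CPM (5.12-fold lower, 3.53 to 7.73). Klf2, the factor that switches on S1pr1, had 656 against 210 CPM (3.13-fold higher, 2.81 to 3.49) and S1pr1 78.0 against 48.7 CPM (1.6-fold, 1.17 to 2.15; 1.47-fold and below the rule without its richest cell). Itgb1, an integrin chain, was 2.05-fold higher (1.87 to 2.25). Early response genes were lower in 6 of 11 and higher in 1 (Egr1, 1166 against 707 CPM, 1.65-fold, 1.53 to 1.78). However, Egr1 was found in a smaller share of family cells, 56.9% against 67.5% of the other brain cells. The 5 richest cells held 48.4% of its UMIs in the family and 12.3% in the others. Egr1, Ccl5 and S1pr1 lie outside the naming rule of this comparison and were picked once their values were known.

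The third comparison set the family against other expanded cells within the spleen. Family cells carried more of the Th1, cytotoxic and NK receptor genes, and the other cells more of the follicular helper and regulatory genes. Of 8921 genes, 542 (6.08%) were higher and 922 (10.3%) lower in the family, with a median log2 ratio of −0.05 over all genes. Without clonotype 1, 18 cells remained, with 446 higher and 353 lower genes, of which 207 and 254 were among the first. Markers of B cells stood at 1231 CPM in the other cells against 39.6 CPM in the family, summed over 8 genes, of which 0 and 5 were at 0. Without the 24 of 140 other cells that held at least 3 UMIs of B cell genes, 483 genes were higher and 829 lower.

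All 5 measured Th1 transcription factors were higher in the family (median log2 ratio 1.52). Tbx21 had 211 CPM against 73.9 CPM (2.86-fold, 2.12 to 3.88), Zeb2 287 against 48.6 CPM (5.90-fold, 4.26 to 8.29) and Bhlhe40 390 against 135 CPM (2.89-fold, 2.32 to 3.61). Of 9 cytokine and chemokine genes of Th1 cells 5 were higher and 2 lower (1.22). Ifng was 2.33-fold higher (1.8 to 3), Ccl5, at 3555 against 746 CPM, 4.77-fold (4.38 to 5.19), Nkg7, at 1462 against 444 CPM, 3.29-fold (2.93 to 3.70) and Cxcr6, a receptor of tissue effector cells, 2.98-fold (2.54 to 3.51). Of the 116 Ifng UMIs of the other spleen cells, a single cell held 65. Of 11 receptor and signalling genes upstream, 4 were higher and 2 lower. Il12rb2 was 3.88-fold (2.73 to 5.58), Il18rap 3.73-fold (2.98 to 4.70) and Il18r1 2.19-fold higher (1.90 to 2.53). The lower genes were Ifngr2, at 0 against 14.6 CPM, and Jak2, a kinase of cytokine receptors, chosen after its values were seen, at 128 against 244 CPM (ratio 0.526, 0.396 to 0.690).

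Among 12 cytotoxic genes 9 were higher and 1 lower (median log2 ratio 1.84), and among 7 NK receptor genes 6 were higher (1.61). Klrg1 had 256 against 26.2 CPM (9.77-fold, 6.43 to 15.4), in 32 of 78 against 7 of 140 cells. Ly6c2 had 453 against 46.7 CPM (9.70-fold, 7.09 to 13.5), in 45 and 12 cells. In the 147 spleen barcodes without T cell features Klrg1 was found in 0 and Ly6c2 in 11 (7.48%), close to the 8.57% of the other expanded cells for Ly6c2. Ctsw, the protease gene cathepsin W, had 419 against 90.4 CPM (4.63-fold, 3.62 to 5.96), in 68 of 78 against 36 of 140 cells, and Cx3cr1, chosen after its values were seen, 109 against 28.2 CPM (3.88-fold, 2.44 to 6.29). The genes with the largest differences included Rbm47, an RNA-binding protein gene, with 81.1 against 3.89 CPM (20.9-fold, 7.58 to 80.0), Lpin1 (10.5-fold, 6.28 to 18.4), Hdgfl3 (7.76-fold, 4.51 to 14.1), Plac8 (10.0-fold, 5.35 to 20.4) and Kcnj8, a potassium channel gene (8.25-fold, 4.34 to 17.0). The Plac8 ratio was 0.706 without clonotype 1.

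Of 11 follicular helper genes 9 were lower in the family and none higher (median log2 ratio −2.71). Sostdc1, a secreted BMP and Wnt antagonist of follicular cells, was at 0 against 663 CPM (at least 117-fold lower). Pdcd1 had 37.7 against 449 CPM (11.9-fold lower, 7.62 to 19.7), Cxcr5, the follicle homing receptor, 17.0 against 111 CPM (6.53-fold, 3.32 to 14.6) and Il21, the cytokine of follicular help, 3.77 against 81.7 CPM (21.6-fold, 5.81 to 182; 2 family UMIs). Of 6 regulatory genes 1 was higher, Il2ra, a chain of the interleukin-2 receptor (2-fold, 1.18 to 3.39; 1.37-fold and not called without clonotype 1), which was chosen after its values were seen. The other 5 were lower, among them Izumo1r, the folate receptor 4 gene (36.4-fold, 19.1 to 80.0), and Ikzf2, the gene of Helios (10.2-fold, 6.73 to 16.3). Tox was 14.9-fold lower (10.0 to 23.2), Tox2 35.6-fold (9.66 to 297; 2 family UMIs) and Il6ra 70.1-fold lower (12.4 to 2789; 1 family UMI). Cd27, a costimulatory receptor lost by late effector cells, was 8.42-fold lower (5 to 15.3).

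Interferon response genes were called in unlike directions in the 2 tissues, a difference that was not tested. In spleen 6 of 14 were higher and 1 lower in the family (median log2 ratio 0.59), among them Irf7 (3.26-fold, 2.31 to 4.62) and Igtp (2.30-fold, 1.73 to 3.07), while in brain 0 of 16 were higher and 5 lower (−0.29). The cell cycle list likewise had 0 of 10 higher and 6 lower in spleen but 3 higher and 0 lower in brain. In brain, Ube2c of a single cell was one of the 3, and Mki67, 1.82-fold higher (1.33 to 2.46), had a ratio of 0.726 without its richest cell. In spleen, 45 of the 48 Ube2c UMIs of the other expanded cells came from a single cell. Mki67 was found in 17.9% of spleen family cells and 18.6% of other expanded spleen cells.

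Receptor segment genes are fixed by the choice of cells, and without them 435 genes were higher and 559 lower in the family in brain, and 538 and 890 in spleen. Across the tissues, 123 genes were higher in the family against the other expanded cells in both brain and spleen, 28% of those called in brain and 22.7% of those called in spleen. Another 209 were lower in both (34.9% and 22.7%), and 27 and 15 were called in opposite directions. Receptor segment genes, among them Trbv26 and Trav7-5 of the rule, made up 3 of the 123 and 23 of the 209, so that 120 and 186 other genes remained. Klrg1, Ly6c2, S1pr5, Lpin1, Hdgfl3, Il12rb2, Il18rap, Nkg7, Zeb2 and Ifng were higher in both, and Pdcd1, Ctla4, Tox, Il1r1, Ccr6, Ahr, Cd5 and Cd6 were lower in both. The 2 tissues share no control cells, though both family groups consist mostly of clonotype 1.

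**Figure D3:**
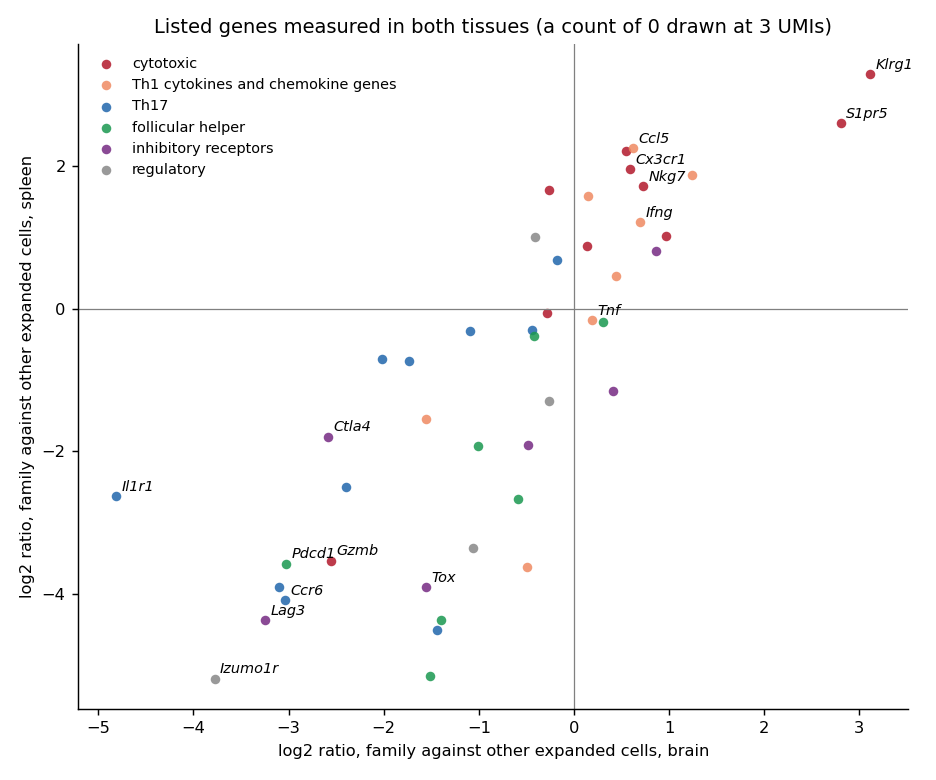
Log2 ratio of family cells against other expanded cells in brain (x) and spleen (y) for the genes of 6 lists measured in both, with a count of 0 drawn at 3 UMIs. Cytotoxic genes such as Klrg1 and S1pr5 lie at the upper right, and Il1r1 and Ccr6 of the Th17 list, Pdcd1 and Lag3 lie at the lower left.

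The groups above are sums over cells, so each clonotype was also set among the expanded clonotypes of its tissue. In brain, clonotype 1 lay above 61 of 62 other clonotypes for Klrg1 (120 CPM) and for Ly6c2 (548 CPM), above 56 for Ifng (984 CPM), 54 for Nkg7 (1040 CPM) and 48 for Tbx21 (125 CPM). The medians of the others were 0, 0, 299, 453 and 73.7 CPM. In spleen, clonotype 1 lay above 20 of 21 for Ifng (262 CPM), Klrg1 (262 CPM), Ly6c2 (516 CPM) and Ccl5 (4148 CPM), and above 19 for Tbx21 (225 CPM). Clonotype 2 in spleen lay above 20 of 21 for Ifng (260 CPM) and Klrg1 (231 CPM), 19 for Ly6c2 (260 CPM) and 18 for Tbx21 (164 CPM). So both clonotypes lay near the top for the Th1 and effector genes in spleen, but were not alone there: at least 1 other clonotype was higher for each gene. In brain, clonotype 2, with 8 cells, lay above 49 of 62 for Ifng (732 CPM) but above 23 for Nkg7 (248 CPM).

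**Figure D4:**
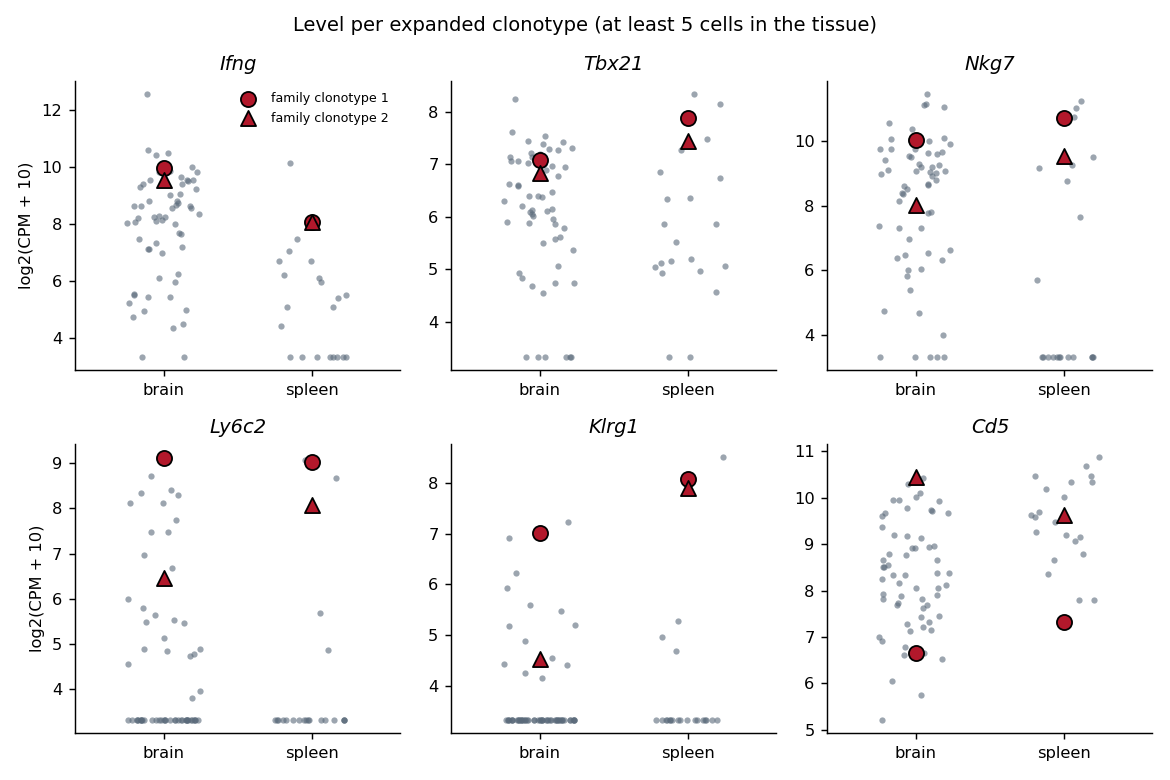
Log2(CPM + 10) of 6 genes in each expanded clonotype with at least 5 cells in brain or spleen (grey), with family clonotypes 1 (circle) and 2 (triangle) in red. Clonotype 1 is above 61 of 62 brain clonotypes for Klrg1 and Ly6c2, and for Cd5 clonotype 2 is above all 62 in brain while clonotype 1 is below all 21 in spleen.

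Clonotypes 1 and 2 carry the same alpha bases and beta chains that differ in codons 6 and 7, shown above, and could be compared within each tissue. This comparison and the genes named in it were chosen after values had been seen. Cd5 and Cd6, which encode related co-receptors, differed in both tissues. CD5 dampens receptor signalling, and its surface level is known to follow the strength of that signalling. Only RNA was measured here, and whether signalling strength differed between the clonotypes was not tested. Cd5 had 90.1 CPM in clonotype 1 and 1386 CPM in clonotype 2 in brain (15.4-fold lower, 10.9 to 21.9), and 149 against 780 CPM in spleen (5.23-fold lower, 3.71 to 7.42). In brain a Cd5 UMI was found in 30 of 57 cells of clonotype 1 and in 8 of 8 of clonotype 2, and in spleen in 33 of 60 and 14 of 15. Cd6 had 88.4 against 588 CPM in brain (6.66-fold lower, 4.36 to 10.1) and 56.2 against 578 CPM in spleen (10.3-fold lower, 6.26 to 17.4).

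The other expanded clonotypes show where each lies. In brain their Cd5 level ran from 27.2 to 1369 CPM with a median of 314 CPM, so clonotype 2 was above all 62 and clonotype 1 above 5. In spleen it ran from 212 to 1871 CPM with a median of 761 CPM, so clonotype 1 was below all 21 and clonotype 2 above 12. As a sum, the family therefore had less Cd5 than the other cells (242 against 489 CPM in brain, 2.02-fold lower, 1.72 to 2.38, and 283 against 856 CPM in spleen, 3.03-fold lower, 2.54 to 3.62), while without clonotype 1 the brain ratio was 2.84 and the spleen ratio 0.856.

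Of 9123 genes in brain, 131 (1.44%) were higher and 362 (3.97%) lower in clonotype 1 than in clonotype 2. In spleen 166 of 8404 (1.98%) were higher and 298 (3.55%) lower. Called in the same direction in both tissues were 23 higher and 37 lower genes, and 2 and 5 had opposite calls. Among the 23 were Nkg7 (1040 against 248 CPM in brain, 1668 against 742 CPM in spleen), Ly6c2 (548 against 78.4 CPM and 516 against 260 CPM), Zeb2, Lpin1, Xdh and Runx2, and the lectin receptor genes Klrd1 and Klrc1. Klrd1, which encodes CD94, had 57.2 and 127 CPM in clonotype 1 and 0 UMIs in all 23 cells of clonotype 2. Atp8b4, a phospholipid flippase gene, had 175 against 13.1 CPM in brain and 232 against 19.3 CPM in spleen (13.4-fold, 2.35 to 534, and 12.1-fold, 3.25 to 101). Among the 37 lower genes were Ptpn22, a phosphatase that dampens receptor signalling (397 against 693 CPM and 347 against 569 CPM), P2rx7, an ATP-gated channel (106 against 340 CPM and 68.5 against 251 CPM), and Runx1 (255 against 471 CPM and 318 against 540 CPM). Ifng and Tbx21 were called in neither tissue: Ifng had 984 against 732 CPM in brain, a ratio of 1.34 (1.02 to 1.80), and 262 against 260 CPM in spleen (1.01, 0.654 to 1.6). With 8 brain cells, clonotype 2 rests on 76495 UMIs there.

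Receptor transcripts outside the rule also marked clonotype 2. Clonotype 2 had Trbv20 RNA at 209 CPM (brain) and 231 CPM (spleen), against 1.73 and 0 CPM in clonotype 1, and Trav13d-4 RNA at 183 and 279 CPM against 0 in clonotype 1. All 23 cells of clonotype 2 held 1 productive alpha chain. Their single productive beta chain was set by the rule, which left out cells with a further one. Contigs not marked productive were not examined. Clonotype 2 thus carried the same further V gene RNA in both tissues.

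**Figure D5:**
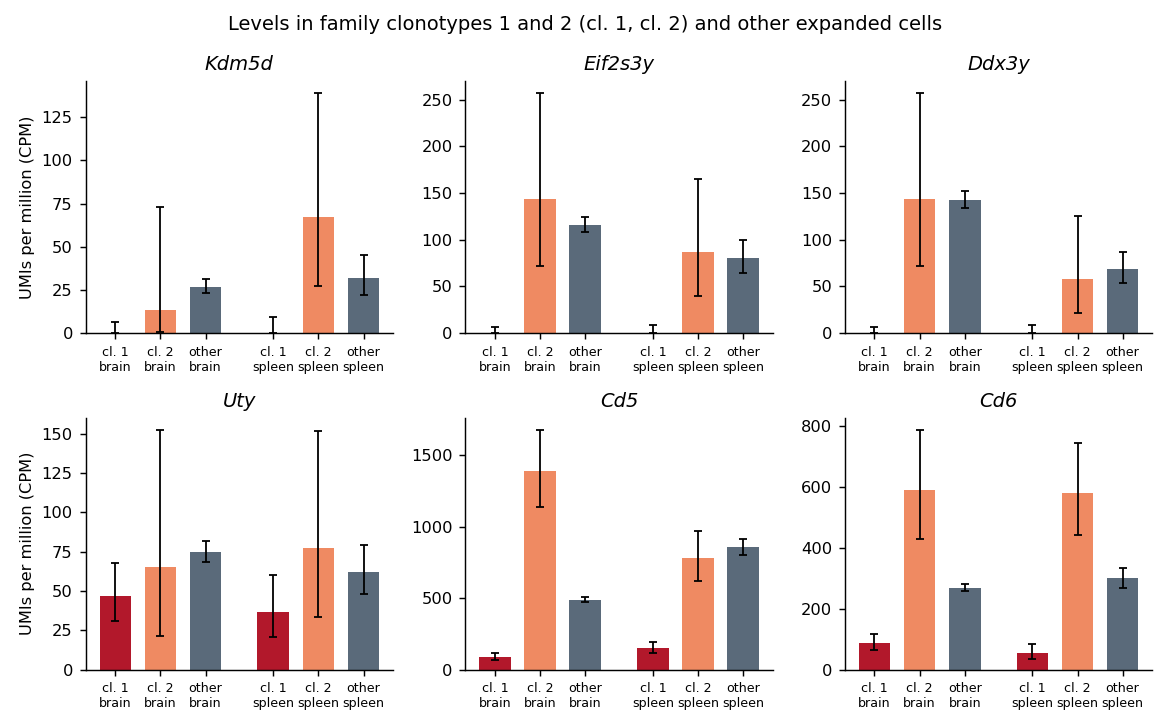
Level in CPM (linear axes from 0) of 4 Y-linked genes, Cd5 and Cd6 in clonotype 1 (red), clonotype 2 (orange) and other expanded cells (grey) of each tissue, with 95% Poisson intervals of counting error. Clonotype 1 has 0 UMIs of Kdm5d, Eif2s3y and Ddx3y in both tissues but 46.8 and 36.7 CPM of Uty, and its Cd5 level is 90.1 and 149 CPM against 1386 and 780 CPM in clonotype 2.

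Clonotype 1 also stood apart in genes of the Y chromosome, which were chosen after their values were seen. Kdm5d, a histone demethylase gene, Eif2s3y, a translation initiation factor gene, and Ddx3y, an RNA helicase gene, had 0 UMIs in all 57 brain and all 60 spleen cells of clonotype 1. Summed, these 3 genes stood at 286 CPM in other expanded brain cells, where 90.5% of cells had a UMI of them, and at 182 CPM in other expanded spleen cells (67.1%). The level in clonotype 1 was thus at least 55.0-fold lower in brain and at least 24.8-fold lower in spleen. None of the 62 other expanded brain clonotypes and none of the 21 in spleen lacked UMIs of the 3 genes, and their lowest levels were 101 and 30.3 CPM.

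Uty, a Y-linked gene that lies between Eif2s3y and Ddx3y in RefSeq's order on GRCm38.p6, was present in the same cells. It had 27 UMIs (46.8 CPM) in brain and 15 UMIs (36.7 CPM) in spleen, against 75.0 and 62.2 CPM in other expanded cells. Xist, which is transcribed from the inactive X chromosome of female cells, had 0 UMIs in the family, 1 UMI in the 4078 brain cells and 2 UMIs in the 8396 spleen cells outside it. In clonotype 2 the 3 genes summed to 301 CPM (brain) and 212 CPM (spleen), and in clonotype 3 to 342 CPM. The TRBV29 cells that share the alpha bases of clonotypes 1 and 2 also had UMIs of them, 3 in the brain cell and 7 in the spleen cells. Cells outside the family that held the beta bases of clonotype 1, 3 in each tissue, had 8 and 4 UMIs of the 3 genes, at median depths of 15400 and 13694 UMIs. So cells with the alpha bases of clonotype 1 but another beta chain carried these transcripts, while the 117 cells of clonotype 1 in 2 separately prepared libraries did not. Whether the DNA differs was not tested here.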

How the data were processed

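Per the labels' protocols, libraries used the GEM-X Single Cell 5' chemistry. The authors deposited whole-number UMI counts per gene and barcode, and a table of receptor contigs. The submitters' processing notes list Cell Ranger 9.0.0 and several genome builds with no role, so no coordinates are given. Barcodes were kept when they held 500 or more genes, 1000 or more UMIs and no more than 10% mitochondrial UMIs (4143 of 4277 in brain, 8474 of 8707 in spleen), and doublets were limited by requiring 1 productive TRB and at most 2 productive TRA chains, which misses those with 1 recovered receptor. A clonotype is the V gene and CDR3 bases of both chains. Counts were summed per group with Python 3.11.15 and scipy 1.17.1. Intervals of ratios are conditional binomial (Clopper-Pearson), those of levels Poisson, and all cover counting error only. Genes of 10 CPM or more in the higher group were measured. No count model was fitted. TMM factors came from edgeR 4.0.16.

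Named genes are Tbx21, Ifng, the 12 highest and 12 lowest called genes of at least 50 CPM by the interval's bound nearest 1, up to 4 of each gene list, and the sort markers. A few genes that this rule names are not reported here. Others are said to be chosen after their values were seen. The members and lists were chosen with earlier results of these data known.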

Additional observations from a re-analysis of the deposited data

Results flagged for a closer look

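Of the genes that the naming rule picked in any comparison, 8 were called in opposite directions in the 2 tissues when family cells were set against other expanded cells, and the difference between the tissues was not tested. Over all 8204 genes measured in both tissues, 27 were higher in brain and lower in spleen, and 15 the reverse. The naming rule favours called genes, so the 8 do not measure how common opposite calls were. Of the cell cycle genes, Ube2c had log2 ratios of 3.69 in brain, from 1 cell, and −3.04 in spleen. Mki67 had 0.87 and −1.59, and its brain ratio was below 1 without its richest cell (0.726) and without clonotype 1 (0.611). Nsg2, a gene of recent and naive T cells, had 1.51 and −2.12, and Egr1 0.72 and −2.37. In the other direction Fgl2, a secreted fibrinogen-like protein gene, had −1.29 in brain and 3.54 in spleen, Klre1, an NK receptor gene, −2.76 and 2.37, Grk4, a receptor kinase gene, −1.65 and 1.52, and the interferon response gene Ifit1 −1.04 and 1.59. For spleen Fgl2, Klre1 and Ifit1 the other expanded cells held 2, 3 and 9 UMIs. Counts of the family were also low. In brain, Klre1 had 1 and 0 UMIs in clonotypes 1 and 2, and Grk4 had 2 and 1. In spleen, the family held 10 Egr1 UMIs. In spleen, 45 of the 48 Ube2c UMIs of the other expanded cells came from a single cell, and the family had 0. There, 17.9% of family and 18.6% of other expanded cells had an Mki67 UMI. In brain, Egr1 was found in 56.9% of family and 67.5% of other expanded cells.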

How the results depend on the processing

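No paired analysis was possible because each tissue has 1 library. Of 89 alternative values, most of them counts of called genes, 70 were scored as unchanged. A gene count had to stay within 1.5 times the reported count. Shares of the family per tissue had to stay within the reported interval, and the number of family cells had to be equal. Alternatives that changed no cell are among the 70. For family cells of brain against spleen, the lower genes numbered 460 with TMM factors and 430 with median-of-ratios size factors, which changed no named call. At a minimum of 50 CPM, which tests fewer genes, the higher and lower counts were 330 and 457 for brain against spleen, 178 and 260 for the family against other brain cells, and 343 and 465 in spleen. Without clonotype 1 they were 256 and 238 for brain against spleen, and the lower genes numbered 199 in brain and 353 in spleen. With family clonotypes given equal weight, the higher genes numbered 890 for brain against spleen, and the lower genes 1079 in brain and 1611 in spleen. Without each gene's richest cell in the higher group, an alternative chosen after seeing the data, the counts were 323 and 387 for brain against spleen, and the higher genes numbered 189 in brain and 351 in spleen.

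Several ratios moved to the other side of 1. For brain against spleen Mki67 had 0.264 without clonotype 1, 0.596 with equal weight and 0.785 without its richest cell. In the family against other brain cells without clonotype 1 they were Zeb2 0.493, Nkg7 0.435, Lta 1.02, Cd5 2.84, Cd6 2.18 and Mki67 0.611, with equal weight Cd5 1.51 and Cd6 1.26, and without its richest cell Mki67 0.726. In spleen without clonotype 1 they were Cd6 1.71, Ifit1 0.942 and Plac8 0.706. Against the single other spleen clonotype of at least 10 cells they were Egr1 1.41 and Cd6 1.5. The cause was not tested, beyond the 8 brain and 18 spleen family cells left without clonotype 1. Keeping family cells with 1 productive TRA, or leaving out TRAV11-TRAJ18 cells, changed no cell and no value. Depth limits zeros: 3 UMIs equal 4.59 CPM in brain and 5.66 CPM in spleen family cells.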
